A study of Mus musculus with 2 samples.

Results

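The loci described here are those of 5 genes of cardiac calcium handling, Cacna1c, Ryr2, Atp2a2, Pln and Slc8a1, each taken as a fixed mm9 window. The members were the H3K27ac peaks of either deposited list whose midpoint lay in a window. There were 286 such peaks of 154664 in all, 129 from the atrioventricular canal (AVC) list of 87572 and 157 from the chamber list of 67092. H3K27ac, acetylation of a lysine of histone H3, marks active promoters and enhancers. Cells were sorted from the hearts of mouse embryos of the FVB/N strain background at stage E10.5, and the mark was profiled in them by ChIP-seq. The AVC library was made from EGFP-positive cells and the chamber library from cells positive for the red fluorescent protein Katushka, and both samples carried the genotype label Katushka+ EGFP+ with no treatment named. The sources used here do not give what drives the reporters or whether embryos were pooled. Each tissue had 1 library, so no difference below has a replicate check, and intervals are exact Clopper-Pearson 95% intervals that cover counting error only.

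Each beat of a cardiomyocyte is set off by calcium. The L-type channel, whose pore is encoded by Cacna1c, lets calcium in, and this opens the ryanodine receptor encoded by Ryr2, which releases the store of the sarcoplasmic reticulum. Atp2a2 encodes the SERCA2 pump that refills the store, Pln encodes phospholamban, a small protein that restrains this pump, and Slc8a1 encodes the sodium-calcium exchanger that removes calcium across the cell membrane. The AVC is the slowly conducting segment between atria and ventricles, and the chambers are the working myocardium of the atria and ventricles; both beat at this stage. The windows are places on the genome and a peak in one was not assigned to the gene. In RefSeq, Pln lies within Cep85l, Cacna1c overlaps Dcp1b, Ryr2 is followed by Mtr, and Atp2a2 lies between Anapc7 and Ift81. The tissue labels were not checked against marker genes, because no mm9 annotation was used here.

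RefSeq sequences before the gene starts (GRCm38.p6) were found for 4 of the 5 genes, with 6 listed starts; Atp2a2 had no entry. The sequences of Pln and Slc8a1 are printed because these 2 windows held the stretches with the most peaks. They are the 250 bases before the start, chr10:53337436-53337685 on the plus strand for Pln and chr17:81738388-81738637 on the minus strand for Slc8a1. These are GRCm38 positions and cannot be set against the mm9 peak positions below. Capitals mark matches to GATAA, the core of GATA factor sites, and to AAGTG, a core of NKX2-5 sites, on either strand.
Pln: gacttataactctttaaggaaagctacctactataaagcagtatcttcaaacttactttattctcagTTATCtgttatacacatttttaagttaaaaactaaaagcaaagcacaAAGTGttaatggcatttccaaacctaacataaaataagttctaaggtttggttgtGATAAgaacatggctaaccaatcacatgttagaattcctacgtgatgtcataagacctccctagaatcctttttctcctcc
Slc8a1: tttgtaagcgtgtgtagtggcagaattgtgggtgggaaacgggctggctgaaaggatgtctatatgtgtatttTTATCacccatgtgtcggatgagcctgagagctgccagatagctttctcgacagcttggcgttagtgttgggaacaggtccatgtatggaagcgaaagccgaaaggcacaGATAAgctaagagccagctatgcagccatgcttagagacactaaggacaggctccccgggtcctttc
The Pln sequence held 2 matches to GATAA and 1 to AAGTG, and the Slc8a1 sequence held 2 matches to GATAA. No match to either was in the sequence of Ryr2 or in the 3 of Cacna1c. Neither AGGTGT, a T-box core, nor GGAATG, a TEAD core, occurred in any of the 6. Among 32841 RefSeq promoters of the same length, 22.6% held GATAA, 40.7% AAGTG, 11.8% AGGTGT and 12.6% GGAATG. All 6 held CANNTG, the E-box, as did 66.2% of all promoters. Pln had the lowest GC content of the 6, at 32.8%, against a median of 52.4% over all promoters, and the second listed start of Cacna1c the highest, at 82.8%. A match is a description of the letters and does not show binding.

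All 5 windows held more chamber peaks than AVC peaks, although the AVC list was the longer one. Covered bases gave another order. AVC peaks covered more than chamber peaks at Ryr2 (18183 against 13931 bp), Pln (9216 against 8820) and Cacna1c (17624 against 14896). Chamber peaks covered more at Atp2a2 (6034 against 5611 bp) and Slc8a1 (17137 against 14982). In total AVC peaks covered 65616 bp and chamber peaks 60818 bp, against 42389731 and 23581702 bp in the whole lists. Over the 5 windows AVC peaks made up 45.1% of the peaks (39.2 to 51.1), against 56.6% of the peaks of both whole lists. The AVC share was 39.3% at Atp2a2 (11 AVC and 17 chamber peaks), 41.5% at Slc8a1 (27 and 38), 45.2% at Pln (19 and 23), 47.3% at Ryr2 (35 and 39) and 48.1% at Cacna1c (37 and 40). Of the 5 separate intervals, that of Slc8a1 (29.4 to 54.4) lay below 56.6% and the other 4 included it. With each window trimmed by 10% on each side the Slc8a1 interval, with an upper bound of 59.1, included it too. Neighbouring peaks are not independent, so these intervals are too narrow. When peaks narrower than 300 bp were left out, AVC peaks outnumbered chamber peaks in 4 of the 5 windows, with shares of 50.8% to 60.0%, and made up 49.0% at Slc8a1, against 66.9% of both whole lists. The intervals of Slc8a1 (34.8 to 63.4) and Ryr2 (37.7 to 63.9) then lay below 66.9%, and the other 3 included it. Among windows of the same length with at least 20 peaks, the median AVC share was between 51.4% and 57.6% for the 5 lengths. Such windows with a share at or below that of the member were 8.64% for Slc8a1, 15.8% for Atp2a2, 17.4% for Ryr2, 18.0% for Cacna1c and 28.3% for Pln. At scores of 5 or more the members had 19 AVC and 29 chamber peaks, an AVC share of 39.6% (25.8 to 54.7), near the 41.8% of both whole lists at that score. Scaling of scores between the lists is not given, so this limit may not mean the same in both. In a bulk library, fewer cells that carry the mark and less of the mark per cell cannot be told apart.

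**Figure D1:**
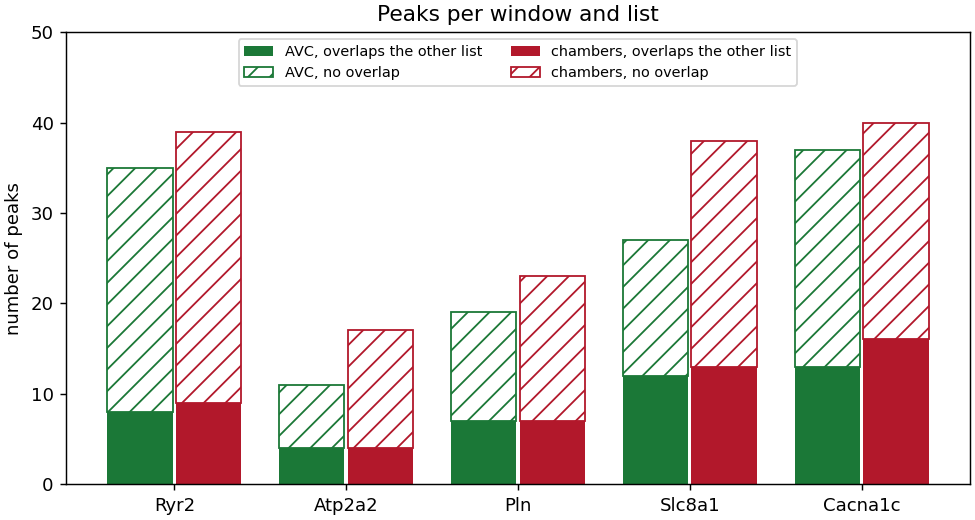
Number of H3K27ac peaks (y axis) in each window for the AVC list (green) and the chamber list (red). Filled parts overlap a peak of the other list by at least 1 bp and hatched parts do not; the chamber bar is the taller one in all 5 windows and most of each bar is hatched.

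Each window held more peaks per 100 kb than its chromosome in both lists, but how unusual its counts were differed between windows. Pln was the densest, with 11.2 AVC and 13.5 chamber peaks per 100 kb, against 3.35 and 2.71 over chromosome 10. Of 14528 autosomal windows of that length, 4.12% held as many AVC peaks and 2.02% as many chamber peaks. At Atp2a2 the densities were 7.33 and 11.3 per 100 kb, against 2.85 and 2.38 over chromosome 5, and 12.9% and 3.74% of windows of that length held as many. At Slc8a1 they were 5.62 and 7.92, against 3.92 and 3.12 over chromosome 17, and 20.2% and 5.84% of windows held as many. The 2 largest windows were less dense, with 5.38 and 6.00 peaks per 100 kb at Ryr2 and 5.21 and 5.63 at Cacna1c. There 22.2% and 24.1% of windows of equal length held as many AVC peaks, and 10.7% and 12.6% as many chamber peaks. The 50 kb on either side of each window held at most 4 AVC and 7 chamber peaks, the latter after Atp2a2 with a highest score of 7.97. These are counts per 50 kb, whereas the densities are per 100 kb. The flank after Atp2a2 (4 AVC and 7 chamber peaks) was denser than its window in both lists. Those after Ryr2 and before Slc8a1, with 4 AVC peaks each, were denser in AVC peaks. The remaining flanks were no denser than their windows.

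Most member peaks were called in a single list. Of the AVC members 44 of 129 overlapped a chamber peak (34.1%, 26.0 to 43.0), against 23.2% of the whole AVC list. Of the chamber members 49 of 157 overlapped an AVC peak (31.2%, 24.1 to 39.1), against 31.6% of the whole chamber list, so the chamber members were near the background. Absence of a call is not absence of the mark. By locus, the shared AVC peaks were 12 of 27 at Slc8a1, 7 of 19 at Pln, 4 of 11 at Atp2a2, 13 of 37 at Cacna1c and 8 of 35 at Ryr2. The shared chamber peaks were 13 of 38 at Slc8a1, 7 of 23 at Pln, 4 of 17 at Atp2a2, 16 of 40 at Cacna1c and 9 of 39 at Ryr2. Slc8a1 thus had the largest shared part on the AVC side, Cacna1c on the chamber side, and Ryr2 the smallest on both, with intervals that overlap between loci. By bases, 6503 bp were covered in both lists at Slc8a1, which was 43.4% of the AVC and 37.9% of the chamber bases. Over chromosome 17 these parts were 16.7% and 28.3%. At Ryr2 2625 bp were covered in both, which was 14.4% and 18.8%. The AVC part at Ryr2 was slightly above the 12.5% of chromosome 13, and the chamber part was below that of the chromosome. Of the members without overlap, 20 of 85 AVC peaks (background 12.6%) and 33 of 108 chamber peaks (background 23.3%) lay within 1 kb of a peak of the other list. With these counted, 64 of 129 AVC members (background 32.9%) and 82 of 157 chamber members (47.5%) had a counterpart. Over 53 overlapping pairs the overlap had a median of 93.9% of the shorter peak, against 96.6% over the 22319 pairs of the whole lists. It was under 50% of the shorter peak in 11 of the 53 pairs, among them 4 of 8 at Pln, where the smallest overlap was 8 bp.

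Each peak has a score, the caller's Log(ER), set chromosome by chromosome, and a whole-number signal value. Both are the authors' and rank peaks within a list only. The lowest member scores lay at the calling threshold of 2 in all windows. The AVC members had a median score of 2.62, that of the whole list as well, and the chamber members of 3.16, against 2.81 for the whole list. A score of at least 5 was reached by 19 of 129 AVC members (14.7%, 9.11 to 22.0), against 9.95% of the list, and by 29 of 157 chamber members (18.5%, 12.7 to 25.4), against 18.1%. Of these, 12 AVC and 20 chamber peaks were shared, against 75.4% and 70.8% of all peaks at that score. Shared members had higher scores than unshared ones within their list, with medians of 3.25 and 2.52 in the AVC and 4.71 and 2.73 in the chambers. The whole lists had the same order, with 3.53 and 2.50 in the AVC and 4.06 and 2.60 in the chambers, so this is a property of the lists. Shared chamber members were also wider, with a median of 460 bp against 320.5 bp for the unshared; the medians were 355 and 316 bp in the whole chamber list. In the AVC the medians were 497 bp for shared and 465 bp for unshared members, an order opposite to the 457 and 475 bp of the whole AVC list.

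**Figure D2:**
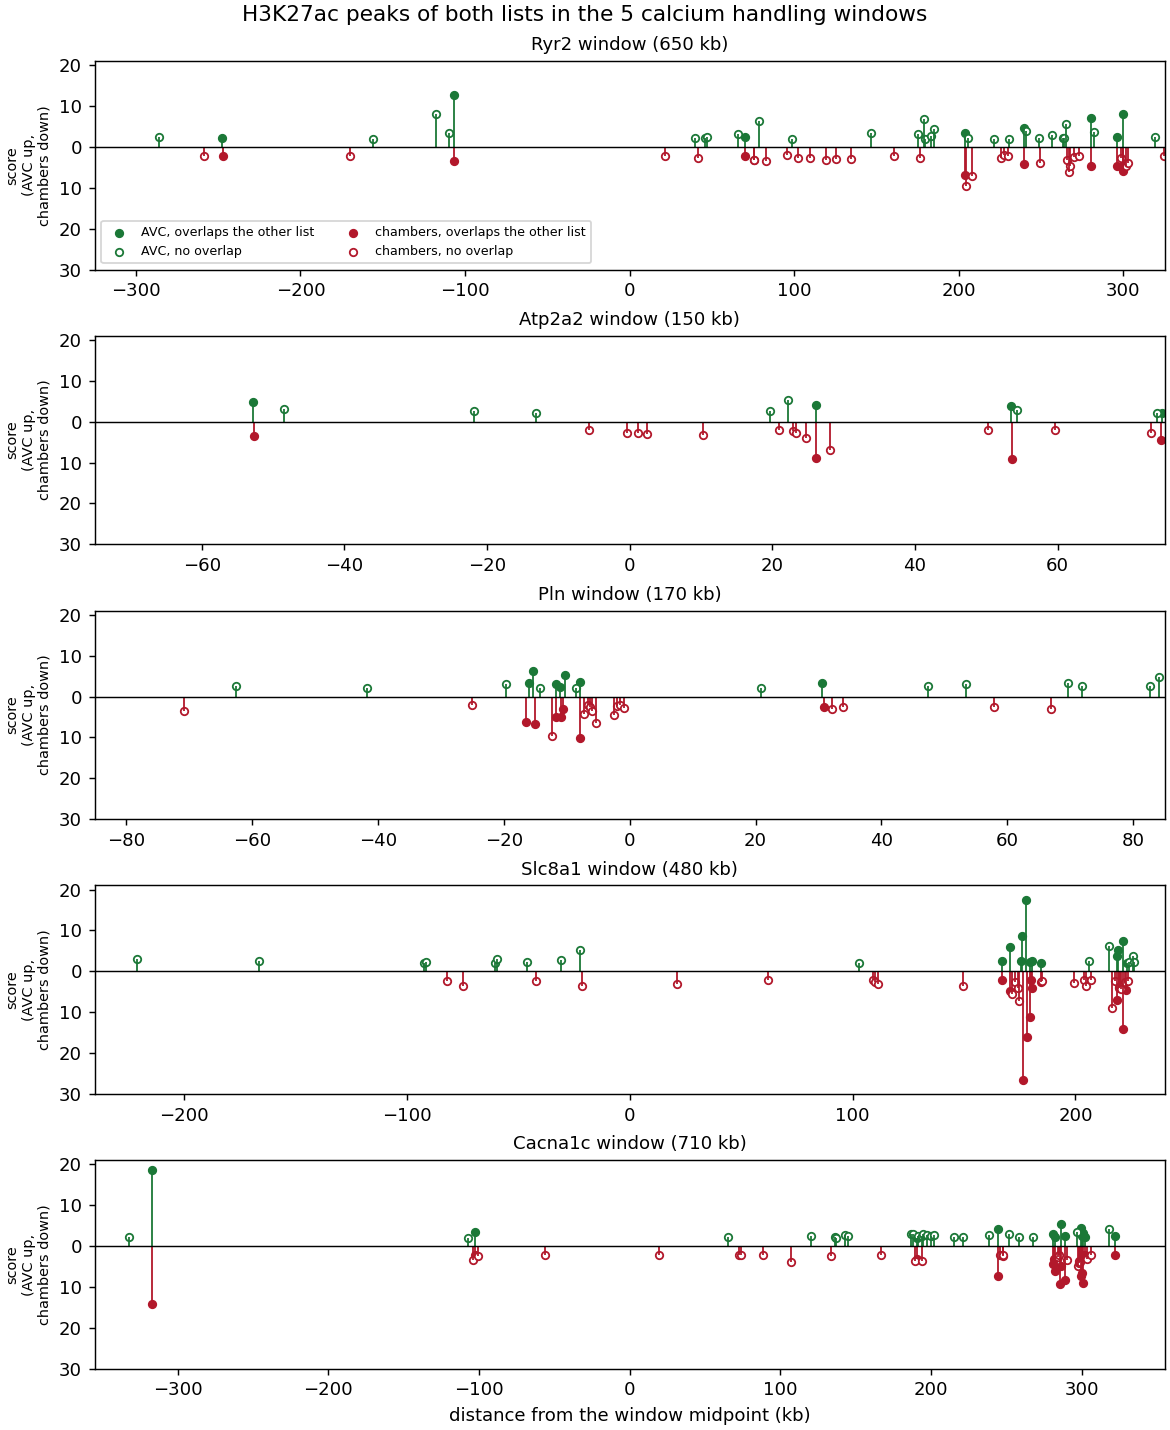
Each panel is a window, the x axis the distance of a peak's midpoint from the midpoint of the window (kb) and the y axis its score, with AVC peaks drawn upward in green and chamber peaks downward in red. Filled points overlap a peak of the other list; scores of 5 or more gather toward the right-hand ends of the Slc8a1 and Cacna1c windows and in the left-hand centre of the Pln window, except for the narrow peak of highest score at the left-hand end of Cacna1c and 1 AVC peak of Slc8a1 with a score of 5.24.

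Calcium entry through the L-type channel is represented by Cacna1c (chromosome 6, 118490001 to 119200000, 710 kb). Its highest score in both lists belonged to a very narrow peak that stood alone. It was 75 bp wide in the AVC (118527765 to 118527839, signal value 173, score 18.64) and 74 bp in the chambers (118527773 to 118527846, 95, 14.21). Of all AVC peaks under 300 bp with a score of at least 10, 99.9% were shared, and likewise 99.9% of such chamber peaks, so a shared narrow peak of this kind is usual in these lists. After it followed 209849 bp without an AVC peak and 212895 bp without a chamber peak. The remaining peaks at a score of 5 or more, 1 in the AVC and 7 in the chambers, all lay at or beyond 119089204.

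Within Cacna1c the lists differed by position. From 119031224 to 119047331 there were 9 AVC and 3 chamber peaks, none with a score of 5 or more. The 50 kb from 119040001 held 7 AVC and 1 chamber peak. The 2 stretches of the window with the most chamber peaks lay farther on: 4 AVC and 9 chamber peaks lay between 119125597 and 119135640, and 5 and 11 between 119141604 and 119151336. In the first of these a chamber peak at 119130401 to 119131142 (742 bp, signal value 67, score 9.18) overlapped an AVC peak at 119130628 to 119131485 (858 bp, 52, 5.36). They scored above 93.0% of the chamber and 92.2% of the AVC peaks on the chromosome. In the second, the chamber peak at 119145657 to 119146238 (score 9.01) overlapped an AVC peak with a score of 3.18, which exceeded 72.0% of AVC peaks on the chromosome. Of the Cacna1c peaks that reached a score of 5, all 8 of the chambers and both of the AVC were shared, the narrow peak among them in each list. Over the whole lists 70.8% of such chamber peaks and 75.4% of such AVC peaks were shared. Without overlap, the highest were a chamber peak at 119142266 to 119142759 (4.85), 117 bp from an AVC peak, and an AVC peak at 119163069 to 119163676 (4.23), 3300 bp from the nearest chamber peak.

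Calcium release is represented by Ryr2 (chromosome 13, 11600001 to 12250000, 650 kb), which had the smallest shared part of the 5 windows. The 22.9% of its AVC peaks that were shared lay near the 23.2% of the whole AVC list. For its chamber peaks the part was 23.1% (11.1 to 39.3), close to the 23.5% of Atp2a2, and the interval included the 31.6% of the whole chamber list. The peaks of Ryr2 were spread thinly over the first part of the window, and in the last 3 of the 13 bins of 50 kb there were 21 AVC and 22 chamber peaks. The AVC peak of highest score was narrow, at 11818173 to 11818376 (204 bp, signal value 109, score 12.79, above 98.1% of the AVC peaks on the chromosome). It contained a chamber peak of 102 bp with a score of 3.46. The next AVC peak, at 11806993 to 11807405 (score 8.14), had no chamber peak within 10 kb. Equal in score was a broad AVC peak of 1081 bp at 12223942 to 12225022, which overlapped 2 chamber peaks with scores of 4.71 and 5.87. The widest AVC peak, 1155 bp at 12103103 to 12104257 (score 6.9), was the 9th widest on chromosome 13 and had no chamber peak within 1 kb, the nearest being 1328 bp away. It lay in a stretch from 12099812 to 12110425 with 5 AVC peaks and 1 chamber peak, none of them shared (whole lists 23.2% and 31.6%). This stretch was named after its values were seen, so the whole-list values are not a matched background for it.

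The highest chamber scores at Ryr2 lay elsewhere in the window. Peaks at 12128595 to 12129171 (score 6.89), 12129207 to 12129791 (9.5) and 12132605 to 12133050 (7.23) followed each other within 4.46 kb. The first overlapped an AVC peak with a score of 3.3. The peak with 9.5, above 93.7% of the chamber peaks on the chromosome, lay 120 bp from that AVC peak and did not overlap it. The third was 1807 bp from the nearest AVC peak. In the bin from 12000001 there were 2 AVC and 7 chamber peaks, none of them shared, where 23.2% and 31.6% of the whole lists were. Of the scores of at least 5 at Ryr2, 3 of 7 in the AVC and 2 of 5 in the chambers were shared. Over the whole lists 75.4% and 70.8% of such peaks were, and the counts here are small. The shared AVC peaks of Ryr2 at that score included narrow ones at 11818173 (204 bp) and 12204957 (125 bp, score 7.05). The first is of the kind under 300 bp with a score of at least 10, of which 99.9% were shared in the whole AVC list.

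Calcium reuptake is represented by Atp2a2 and Pln, the pump and its inhibitor. At Atp2a2 (chromosome 5, 122850001 to 123000000, 150 kb) the chamber peaks scored highest at 122978254 to 122978933 (680 bp, signal value 67, score 9.23) and at 122950843 to 122951339 (497 bp, 65, 8.88). Both overlapped AVC peaks, of 537 bp (signal value 41, score 3.8) and 509 bp (43, 4.06). The chamber peaks exceeded 93.0% and 92.5% of their list on the chromosome, and the AVC peaks 79.6% and 82.8% of theirs. The remaining chamber peak over a score of 5, at 122952787 to 122953473 (6.91), had no AVC peak within 1 kb.

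The AVC peak of highest score at Atp2a2, at 122946927 to 122947554 (628 bp, signal value 52, score 5.31), did not overlap a chamber peak; a chamber peak with a score of 2.24 lay 145 bp away. No other AVC peak of this window reached a score of 5. In the 50 kb from 122900001 there were 4 AVC and 9 chamber peaks, and none of the 13 overlapped. Most peaks of the whole lists did not overlap either (23.2% of AVC and 31.6% of chamber peaks did). At 122871834 to 122872492 an AVC peak with a score of 4.88 covered a chamber peak with 3.55. No member here was above 95% of its list on the chromosome in either tissue, and the widest were 678 bp in the AVC and 687 bp in the chambers.

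At Pln (chromosome 10, 52980001 to 53150000, 170 kb) the peaks gathered in 1 place. A stretch of 24.4 kb from 53039887 to 53064305 held 17 of the 23 chamber peaks (73.9%) and 9 of the 19 AVC peaks (47.4%). It contained all 5 chamber peaks and both AVC peaks that reached a score of 5. The chamber peaks covered 7423 bp there and the AVC peaks 4532 bp. Over the whole Pln window the order was reversed, with 8820 bp covered by chamber peaks and 9216 bp by AVC peaks. The highest chamber peak, at 53056744 to 53057338 (595 bp, signal value 73, score 10.07, above 93.9% of its list on the chromosome), overlapped an AVC peak at 53056796 to 53057435 (640 bp, 39, 3.45, above 75.2%). The next, at 53052263 to 53053002 (740 bp, 71, 9.72), lay 121 bp from an AVC peak with a score of 2.96 and did not overlap it. The highest AVC peak, at 53049358 to 53049943 (586 bp, 59, 6.2), overlapped a chamber peak at 53049687 to 53050214 (528 bp, 54, 6.76); they exceeded 93.3% and 88.5% of their lists on the chromosome.

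The part of the Pln stretch beyond its highest chamber peak held chamber peaks alone. After the AVC peak that ends at 53057435, no AVC peak was called for 28182 bp. Over the rest of the stretch there were chamber peaks, among them the one at 53059353 to 53059949 (597 bp, score 6.43), 1917 bp from the nearest AVC peak. Outside the stretch the AVC members were the more numerous, with 10 against 6. They included the highest AVC peak without overlap, at 53148813 to 53149387 (575 bp, score 4.89), which had no chamber peak within 16 kb.

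**Figure D3:**
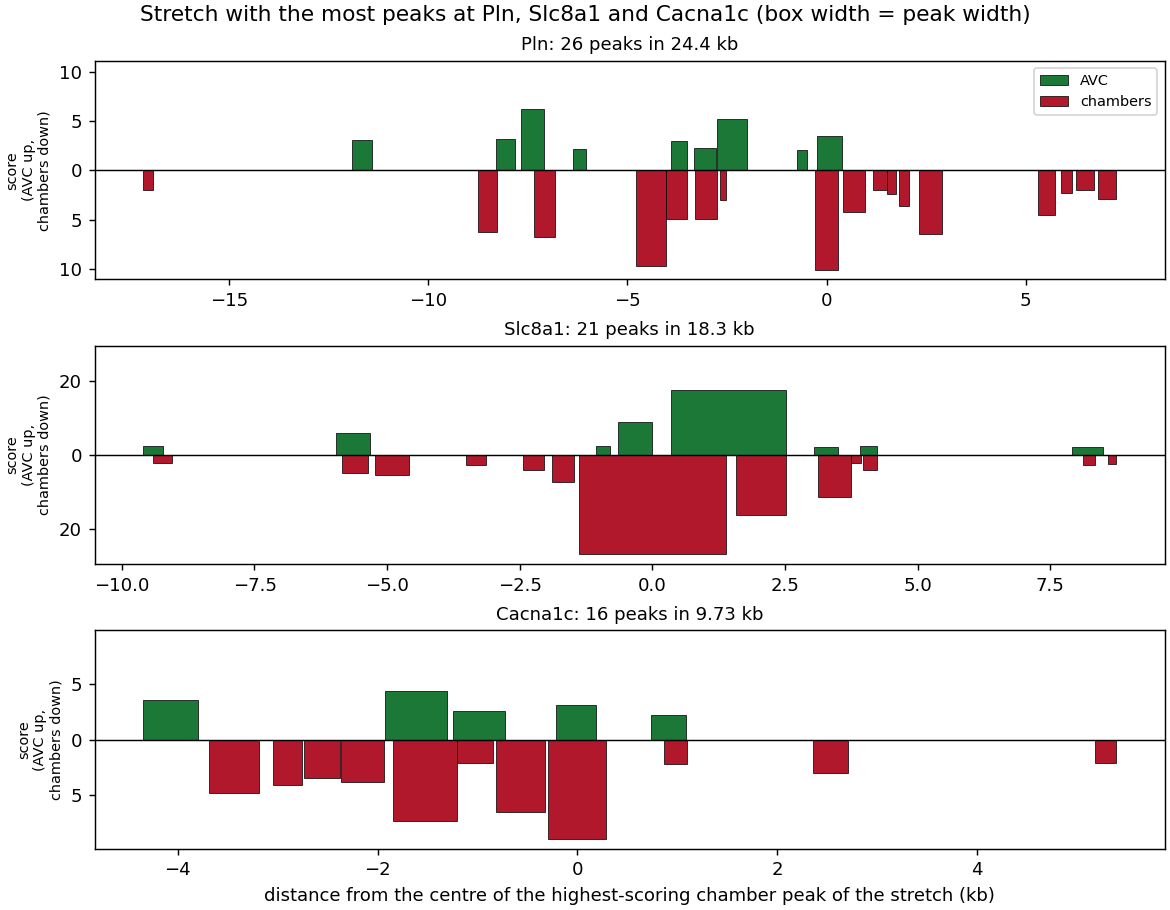
Stretches with the most peaks at Pln, Slc8a1 and Cacna1c: boxes are peaks drawn to their width against the distance (kb) from the centre of the highest-scoring chamber peak of the stretch, with the score on the y axis, AVC upward in green and chambers downward in red (the y scale differs between panels). At Pln chamber boxes continue to the right of 0 where AVC boxes stop, and at Slc8a1 the broadest box of each list overlaps that of the other.

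Calcium removal is represented by Slc8a1 (chromosome 17, 81720001 to 82200000, 480 kb), which held the highest chamber score of the 5 windows and the broadest peaks of both lists among them. The chamber peak at 82134939 to 82137723 was 2785 bp wide, with a signal value of 507 and a score of 26.68. It ranked 10th by score among the 2968 chamber peaks on the chromosome and was the widest of them. The AVC peak at 82136683 to 82138850 was 2168 bp wide, with a signal value of 200 and a score of 17.5. It ranked 53rd by score among 3729 AVC peaks and was the widest AVC peak on the chromosome. Only 13 of all chamber peaks (0.0194%) and 14 of all AVC peaks (0.016%) were 2000 bp or wider. The chamber and AVC peaks overlapped over 1041 bp. The chamber peak also spanned AVC peaks of 636 bp (score 8.75) and 259 bp (2.52). The AVC peak also overlapped a chamber peak of 943 bp (16.03). Peak borders and the bases covered thus differed between the 2 lists here.

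These peaks belonged to a stretch of 18.3 kb from 82126735 to 82145069 with 8 AVC and 13 chamber peaks. All 8 AVC peaks in it were shared, against 23.2% of the whole AVC list. Stretches were chained from peaks of both lists, so the whole-list value is not a matched background for this one. The 5 chamber peaks without overlap there included one at 82134430 to 82134849 (score 7.26), 418 bp from an AVC peak. To its right the chamber peak at 82139462 to 82140075 (614 bp, score 11.25) overlapped an AVC peak of 437 bp with a score of 2.16, which exceeded 12.4% of its list on the chromosome against 94.4% for the chamber peak. The second stretch, from 82174839 to 82186548, held 8 AVC and 11 chamber peaks. Its highest were a chamber peak at 82181055 to 82181929 (875 bp, signal value 93, score 14.17) and an AVC peak at 82181066 to 82181888 (823 bp, 62, 7.29), with nearly the same borders. It also held the highest unshared peaks of the window, an AVC peak at 82174839 to 82175521 (6.17) and a chamber peak at 82175935 to 82176571 (8.87), 413 bp apart.

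All 12 shared AVC and 13 shared chamber peaks of Slc8a1 lay in these 2 stretches. In the first 400 kb of the window, which end before both stretches, there were 10 AVC and 10 chamber peaks. None of these overlapped, which follows from the sentence before and is no separate result. In the whole lists 23.2% and 31.6% of peaks overlapped. In the first 400 kb 1 peak reached a score of 5, an AVC peak at 81937466 to 81938287 (822 bp, 5.24). It lay 231 bp from a chamber peak with a score of 3.52. The bin from 82120001 had 9 AVC and 17 chamber peaks, the largest difference of any bin of this window.

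**Figure D4:**
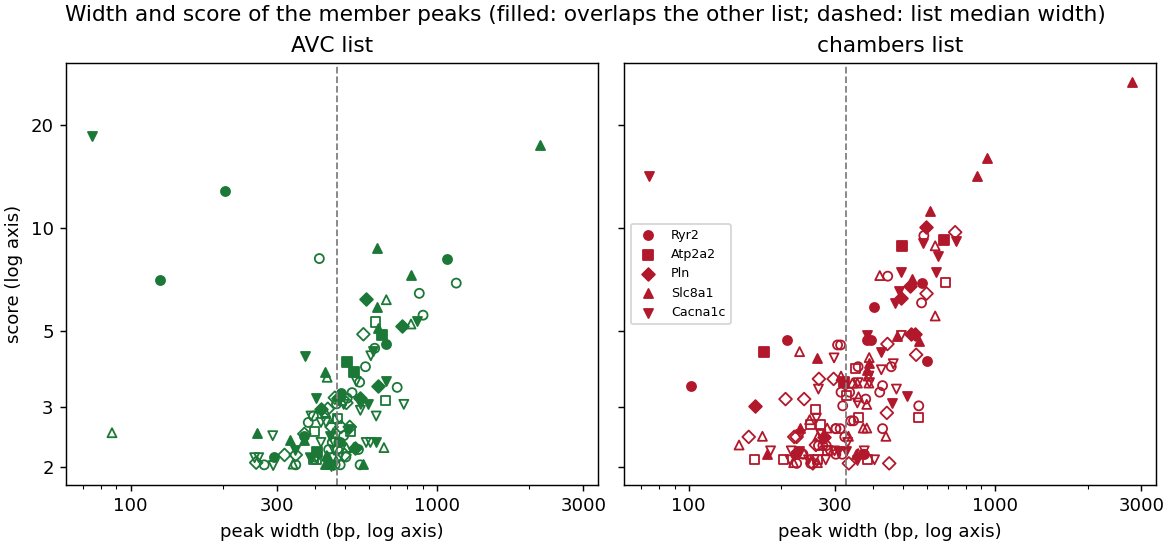
Peak width (x axis, bp, log axis) and score (y axis, log axis) of every member, AVC list on the left and chamber list on the right, with a symbol per locus, filled where the peak overlaps the other list; the dashed line is the median width of the whole list. The narrow peaks of Cacna1c (75 and 74 bp) lie at the upper left, and the Slc8a1 peaks of 2168 and 2785 bp lie farthest to the right.

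The 2 lists differed in width as well. AVC members had a median width of 474 bp and chamber members of 351 bp, against 472 and 325 bp in the whole lists. Peaks of at least 500 bp made up 53 of 129 AVC members (41.1%), near the 41.8% of the list, and 28 of 157 chamber members (17.8%), against 13.3% of the list. Peaks under 150 bp were 3 of 129 in the AVC (background 2.09%) and 3 of 157 in the chambers (4.63%). Pln had the largest broad part among chamber peaks, 7 of 23. The median gap to the next chamber peak was 575.5 bp at Pln, 703 bp at Slc8a1, 1526 bp at Cacna1c and 2184.5 bp at Atp2a2. Between AVC peaks it was 2605.5, 2982.5, 3887 and 6014.5 bp in that order. At Ryr2 the median gaps were alike, 7013 bp in the chambers and 7563.5 bp in the AVC. Gaps over the whole lists were not computed, so closer spacing here cannot be told from a property of the chamber list. AVC peaks that overlapped several chamber peaks numbered 8 of 44 shared ones (background 9.24%), and chamber peaks that overlapped several AVC peaks 3 of 49 (4.92%).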

How the data were processed

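H3K27ac ChIP-seq was done in 1 AVC and 1 chamber library. Bowtie, SAMtools and mm9 are named without versions or roles, per the submitters' processing notes. Per the file headers, peaks were called in each library separately with OccuPeak 1.3, chromosome by chromosome, at a Log(ER) threshold of 2 for reads of 50 bp, with fragments modelled at 60.5 (AVC) or 68 bp (chambers). The score deposited by the authors is taken to be this Log(ER), whose log base is not stated. The deposited signal value is an unscaled whole number per peak that the header does not name. Scaling between lists, a control library and sequencing depth are not given in the sources used here, so scores and signal values were ranked within a list only. The exceptions are the AVC shares at a minimum score and the shared parts of the minimum-score alternative. These applied the same score limit to both lists, and whether it means the same in each is not known.

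From the files, peaks were assigned to windows by midpoint and counted as shared from 1 bp of overlap, checked against bedtools 2.31.1 and tested on simulated data. Starts were taken as BED starts and are printed 1-based. Stretches chain peaks of either list over gaps of at most 5 kb. Autosomes were tiled with windows of each member's length. Named peaks are, per window and list, the 3 of highest score, the widest and the 2 of highest score without overlap; named bins are those of 50 kb with most peaks of a list or differing by 5 or more. Other peaks and stretches were named after their values were seen. The loci and rules were chosen with earlier results of these data known. No mm9 sequence or annotation was used, so a planned list of other calcium genes was not analysed here. Software was pandas 2.3.3, scipy 1.17.1, numpy 2.4.6 and matplotlib 3.10.9 under Python 3.11.15. Alternatives covered score, width, list length, placement, window borders and overlap.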

Additional observations from a re-analysis of the deposited data

How the results depend on the processing

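Of 46 alternative values, 42 stayed inside the 95% interval of the reported value. Some could not leave it. Placing peaks by any base in the window gave the same counts, and leaving out peaks under 150 bp changed nothing at Atp2a2 and Pln. Most other settings used part of the same peaks, and the intervals are wide, so this count is no measure of stability. The AVC share at Cacna1c was 35.3% with scores of at least 3, where 50.2% of the peaks of both lists were AVC peaks. With that limit 47.1% of AVC members were shared, against 32.4% in the list. Counting a peak within 1 kb as shared gave 49.6% for the AVC and 52.2% for the chambers, against 32.9% and 47.5% of the lists. Over the alternatives the AVC share ran from 40.0% to 50.8% at Ryr2, 34.6% to 55.0% at Atp2a2, 36.4% to 60.0% at Pln, 31.2% to 49.0% at Slc8a1 and 35.3% to 56.1% at Cacna1c. The highest values came with peaks of at least 300 bp, for which the share of both lists was 66.9%. There AVC peaks outnumbered chamber peaks at Ryr2, Atp2a2, Pln and Cacna1c. They did so at Cacna1c with the window trimmed by 10% on each side as well (54.2%), and at Ryr2 the numbers were then equal, 26 each. Which list had more peaks therefore depended on these choices at Pln, Atp2a2, Ryr2 and Cacna1c. At Slc8a1 chamber peaks were the more numerous under every alternative run, but with peaks of at least 300 bp the numbers were nearly equal (25 AVC peaks of 51). The Slc8a1 interval included the whole-list share only with the trimmed window (upper bound 59.1, against 56.6%), and that of Ryr2 lay below it only with peaks of at least 300 bp (37.7 to 63.9, against 66.9%). Leaving out peaks under 150 bp, chosen after seeing the data, changed no share by more than its interval. No paired analysis was possible because each tissue has 1 library. The unknown depth and the lack of a control library here limit what a missing peak shows.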
